A study of Danio rerio with 8 samples.

Results

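hmx1, hmx4, mab21l1 and mab21l2 are 4 regulators of eye patterning, and the array covered all 4 of them with 7 probes, among 14462 named genes with 21061 probes. They were picked by gene symbol with the ratios of these arrays already known, hmx4 and mab21l1 standing among the highest of all genes, so their own ratios are given as a description and carry no test. hmx1 and hmx4 encode homeodomain transcription factors of the Hmx (H6, Nkx5) family, which in vertebrate embryos mark the nasal side of the retina, the lens, the ear and cranial sensory ganglia, and loss of HMX1 in humans causes a syndrome of small malformed eyes and ears. mab21l1 and mab21l2 encode proteins with a nucleotidyltransferase fold related to the DNA sensor cGAS, named after a Caenorhabditis elegans gene that sets the identity of sensory rays in the male tail. In mouse, Mab21l1 is needed for the lens and Mab21l2 for the optic cup, and variants of the human genes are known in patients with corneal dystrophy or with small and cleft eyes.

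Cornea of adult AB2O2 wild type zebrafish was compared directly with epidermis of the skin of the same strain on 2-colour arrays, without any treatment or mutation in either group. The data comprised 4 biological repeats on 2 slides (repeats 1 and 2 on slide 1, repeats 3 and 4 on slide 2), each measured on a pair of arrays of opposite dye orientation, 8 arrays in all. Corneae were pooled from 30 eye globes per repeat, and the epidermis was scraped off together with the scales, so that both are whole tissues of many cell types. In such samples fewer cells of a type and less RNA per cell cannot be told apart. Each value is a log2 ratio of cornea over epidermis, in which 1 stands for a 2-fold difference, and means are given ± SD between the 4 repeats (n = 4 below). That positive values mean cornea was read from how the labels name the tissues and from marker genes, since the values themselves do not say so. Of 15 measured marker genes of the cornea, 13 were called higher (limma, adjusted p under 0.05, as were 22.9% of all genes) and 1, the corneal proteoglycan gene lum, was lower (−1.55 ± 0.19, limma adjusted p = 0.000331). Several of the 15 markers, such as pax6a, pax6b, foxc1a, kera, dcn, tgfbi and coch, are in the authors' set of genes enriched in cornea. That set was drawn from arrays of cornea against dermis and epidermis, so the count bears only on the sign of the values. Of 20 genes of epidermis and scales, 10 were lower, as were 13.8% of all genes, and 4 higher. Gene names rest on a rearranged probe grid, under which different probes of a gene correlated at r = 0.361 over 5098 genes, against 0.0191 with the numbering as given.

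hmx4 had the highest ratio of the 4 genes. Its log2 ratio was 4.07, 4.94, 4.59 and 4.63 in repeats 1 to 4, and 4.56 ± 0.36 on average, a 23.5-fold difference towards cornea. Over the 8 arrays it lay between 3.55 and 5.05 with a median of 4.68. The lowest array was that of repeat 1 with cornea in Cy5, and the highest that of repeat 2 with the same dyes, so that both extremes of hmx4 lay on slide 1 and in 1 dye orientation. With cornea in Cy3 the 4 arrays kept to a narrow range, 4.58 to 4.89.

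hmx1, the other homeobox gene, stood at 3.57, 3.43, 3.53 and 3.74 in the 4 repeats. Its mean of 3.57 ± 0.13 is an 11.9-fold difference. It was the least variable of the 4 genes between repeats, and 9.40% of all genes had a smaller SD. This small spread belongs to the means of dye pairs, since single arrays of hmx1 ran from 3.14 to 4.24. Apart from repeat 2 (3.45 and 3.41), the array with cornea in Cy3 was the higher of its pair.

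mab21l1 lay between both homeobox genes, at 3.67, 4.25, 4.22 and 4.01 in repeats 1 to 4. The mean of 4.04 ± 0.27 is a 16.4-fold difference. Single arrays of mab21l1 ran from 3.22 to 4.55, and the lowest was again that of repeat 1 with cornea in Cy5. In all 4 repeats the array with cornea in Cy3 gave mab21l1 the higher value.

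mab21l2, its closest relative, showed hardly any of this. Its ratio was 0.65, 0.69 and 0.63 in repeats 1 to 3 and 0.14 in repeat 4, and the mean was 0.53 ± 0.26, a 1.44-fold difference. Of its 8 arrays 7 were above 0, from −0.13 to 1.04. The array below 0 was that of repeat 4 with cornea in Cy5, and without repeat 4 the mean of mab21l2 was 0.66. No array of mab21l2 reached the lowest array of any of the other 3 genes.

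**Figure D1:**
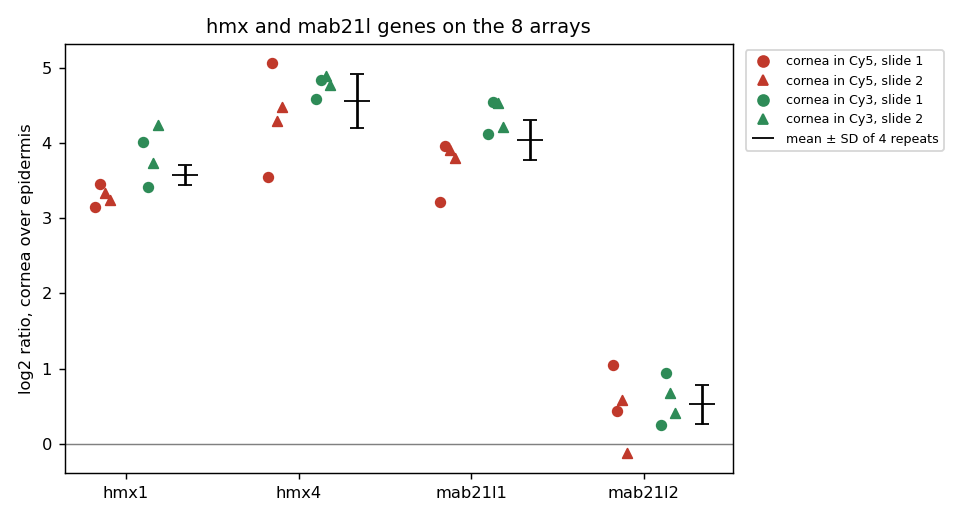
Log2 ratio of cornea over epidermis (vertical axis) of hmx1, hmx4, mab21l1 and mab21l2 on each of the 8 arrays, coloured by the dye of the cornea sample and shaped by slide, with the mean ± SD of the 4 repeats as a black bar. hmx1, hmx4 and mab21l1 lie between 3.14 and 5.05 on every array, whereas mab21l2 lies between −0.13 and 1.04.

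The probes showed the same split but not the same sizes. hmx4 was measured by 2 probes, at 4.10 ± 0.34 and 5.01 ± 0.41, and the second was the higher on 8 of 8 arrays, by 0.91 ± 0.21. The probes of mab21l1 stood at 3.03 ± 0.20 and 5.05 ± 0.37, which is 8.14-fold and 33.1-fold. They differed by 2.02 ± 0.26, with the second higher on 8 of 8 arrays, so the size given for mab21l1 depends on the probe while its direction does not. Among the 3952 genes with 2 probes the median difference between them was 0.50, and 5.82% differed as much as those of mab21l1 or more. For mab21l2 the probes stood at 0.45 ± 0.36 and 0.61 ± 0.42 and did not differ beyond their spread (0.16 ± 0.59). Each of them fell below 0 on 1 array, the first at −0.26 with cornea in Cy3 and the second at −0.79 with cornea in Cy5, both in repeat 4. The second probe of mab21l2 also gave its highest value, 1.92, on the array of repeat 1 with cornea in Cy5, where the first gave 0.17. hmx1 had a single probe, so that no other probe bears on its value. Which probe is nearer to the true ratio was not tested, since probe sequences and spot intensities were not used here.

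**Figure D2:**
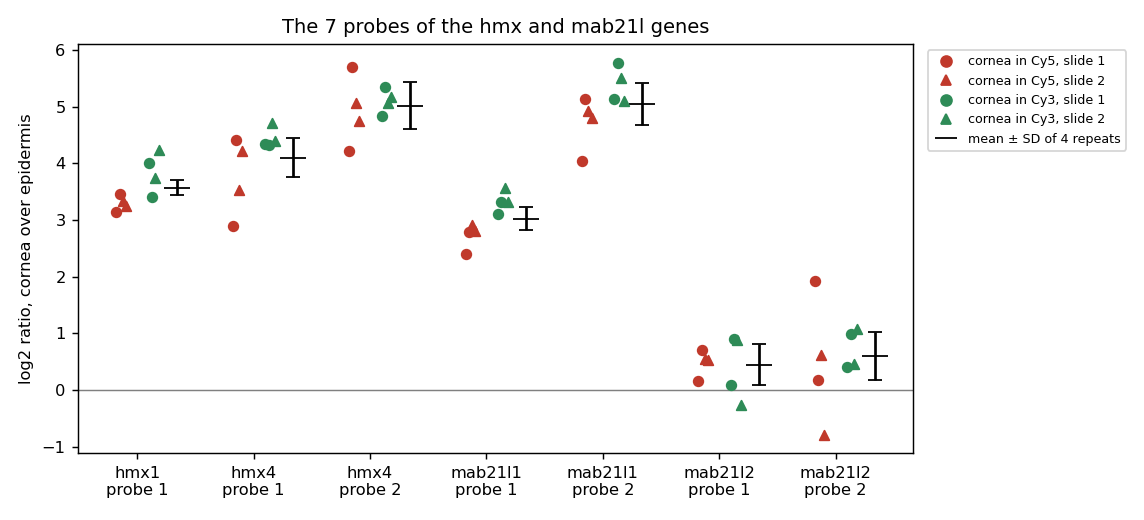
Log2 ratio of cornea over epidermis (vertical axis) of each of the 7 probes on the 8 arrays, with dye and slide marked as in the legend and the mean ± SD of the 4 repeats as a black bar. The probes of mab21l1 form separate groups at 3.03 and 5.05, and the 2 probes of mab21l2 scatter around 0.45 and 0.61 with 1 array each below 0.

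Set in order, the ratios ran from hmx4 through mab21l1 and hmx1 to mab21l2. hmx4 exceeded mab21l1 by 0.52 ± 0.16 within repeats and on 8 of 8 arrays, although their repeats overlapped (4.07 to 4.94 against 3.67 to 4.25). mab21l1 exceeded hmx1 by 0.47 ± 0.34, from 0.0951 in the closest repeat to 0.82, and on 7 of 8 arrays. This is the pair of neighbours in the order that was least separated, and the gap between the probes of mab21l1 was larger than either step. hmx4 and hmx1 did not overlap between repeats and were 0.99 ± 0.42 apart. The step down to mab21l2 was of another size, 3.04 ± 0.38 below hmx1 and 3.51 ± 0.35 below mab21l1. These are differences of ratios between genes and say nothing of how much RNA of each gene either tissue held.

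Among all 14462 genes hmx4 was number 6, mab21l1 number 16 and hmx1 number 31 from the highest ratio, and mab21l2 was number 3163, with 78.1% of genes below it. A log2 ratio over 3 was reached by 3 of the 4 genes, against 0.574% of all genes (83). The same 3 were above 0 on all 8 arrays, as were 21.8% of all genes, and 10.2% of all genes were so with a log2 ratio over 1. Since the genes were chosen with these ratios known, nothing is read from these counts. For comparison, the median gene stood at 0.0302, the SD of the mean ratio over all genes was 0.79, and the median SD between repeats was 0.31. The SDs of hmx4, mab21l1 and mab21l2 were near that median.

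**Figure D3:**
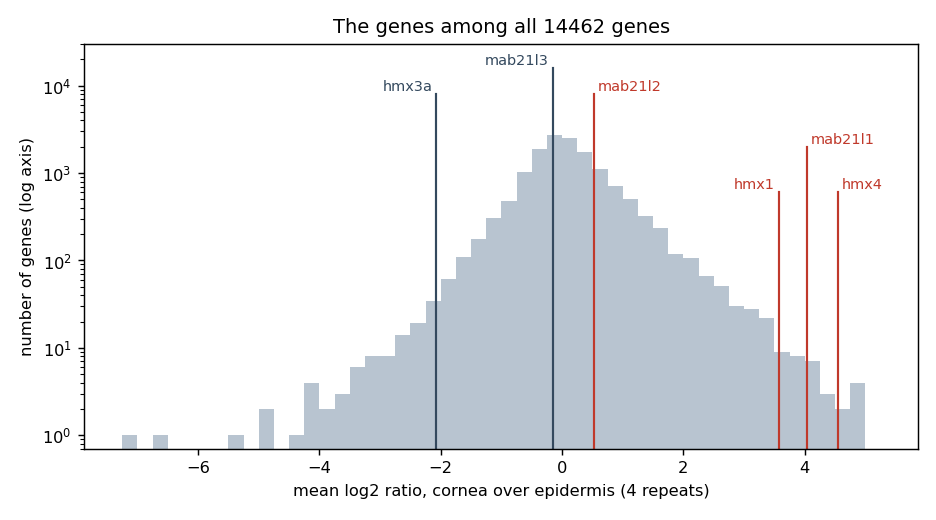
Number of genes (vertical axis, logarithmic) by mean log2 ratio of cornea over epidermis (horizontal axis, bins of 0.25), with vertical lines at the 4 genes in red and at their relatives hmx3a and mab21l3 in dark blue. hmx1, mab21l1 and hmx4 lie in the right tail at 3.57, 4.04 and 4.56, mab21l2 near the centre at 0.53 and hmx3a in the left tail at −2.07.

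The dye orientation is a measure that the choice of genes did not use. It was tested as the deviation of the array with cornea in Cy5 from the mean of its repeat. This dye term was −0.28 ± 0.24 for hmx1, −0.21 ± 0.26 for hmx4, −0.32 ± 0.10 for mab21l1 and −0.0425 ± 0.31 for mab21l2, all below 0, as it was for 51.6% of all genes. With limma over all genes none of the 4 was called (adjusted p = 0.424, 0.513, 0.365 and 0.902), and 0% of the 14462 genes were, although 1735 genes had an unadjusted p under 0.05, mab21l1 among them. Split by dye, hmx1 stood at 3.29 with cornea in Cy5 and 3.85 in Cy3, and mab21l1 at 3.72 and 4.35. hmx4 stood at 4.34 and 4.77 and mab21l2 at 0.48 and 0.57, so that neither orientation moved a gene across the gap between mab21l2 and the rest. The slides gave like values too, with hmx1 at 3.50 on slide 1 and 3.64 on slide 2, hmx4 at 4.50 and 4.61, and mab21l1 at 3.96 and 4.11. Only mab21l2 was lower on slide 2, at 0.38 against 0.67.

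The other measured relatives lay between −2.07 and 0.61. Of 19 relatives listed, 7 were measured, and of these only hmx3a is an Hmx gene and only mab21l3 a Mab21l gene. Of the 7, 1 was called higher and 1 lower (14.3% each, against 22.9% and 13.8% of all genes), and their median was −0.0712. With so few genes, nothing is read from these counts about either family. The lower one was hmx3a, an Hmx gene best known from the inner ear and lateral line. It stood at −1.13, −2.66, −2.55 and −1.94 in the 4 repeats, below 0 on all 8 arrays. Its mean of −2.07 ± 0.70 is a 4.20-fold difference towards epidermis (limma adjusted p = 0.00157). On every array hmx1 and hmx4 were above 0 and hmx3a was below it. This sets 1 gene against genes chosen with their ratios known, so nothing is read from it about the Hmx family. hmx3a was measured by 1 probe, and repeat 1 gave its weakest value. mab21l3, the remaining measured mab21l gene, was at −0.15 ± 0.53 and not called (adjusted p = 0.618). The relative called higher was itprip, which encodes a protein that binds the inositol trisphosphate receptor (0.61 ± 0.20, adjusted p = 0.0127). That call was lost without repeat 4 (adjusted p = 0.0594). cgasa, mief1, mief2 and itpripl2, further genes with the Mab21 fold, were between −0.51 and 0.19 and not called.

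hmx4 and hmx1 are next to each other in the zebrafish genome, with no gene between them in the RefSeq table of assembly GRCz12tu, and mab21l2 lies within the span of lrba, which encodes a vesicle trafficking protein. The measured genes around hmx4 and hmx1 had lower ratios. Before hmx4 came cpz, a carboxypeptidase gene (−0.24 ± 0.30), and gpr78a, an orphan receptor gene (−0.0421 ± 0.34), neither called. After hmx1 came the adrenergic receptor gene adra2c (0.42 ± 0.38, not called) and lrpap1, a chaperone gene of the LDL receptor family (0.62 ± 0.20, limma adjusted p = 0.0120), a call lost without repeat 4 (0.0580). htt, the huntingtin gene, stood at −0.66 ± 0.37 (adjusted p = 0.0242), a call lost without repeat 2 (0.0618), 3 (0.0719) or 4 (0.0677), and with the arrays of a repeat as a replicate block (0.138). The highest neighbour of this pair was naa15b, which encodes a subunit of an N-terminal acetyltransferase (1.26 ± 0.11, adjusted p = 0.000498). It is the fifth measured gene before hmx4. The neighbours of this pair thus lay between −0.66 and 1.26, below the 3.57 of hmx1 and the 4.56 of hmx4. Only 0.574% of all genes had a log2 ratio over 3, and hmx1 and hmx4 were chosen with theirs known, so nothing is read from this.

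lrba had a log2 ratio of 0.51, 0.65, 0.77 and 0.70 in the 4 repeats (0.66 ± 0.11, limma adjusted p = 0.00606). This is close to the 0.53 ± 0.26 of mab21l2 within it, except in repeat 4, where lrba stood at 0.70 and mab21l2 at 0.14. The guidance gene slit2, the next measured gene beyond lrba, was at 0.40 ± 0.11 (adjusted p = 0.0391, lost with any 1 repeat left out, at 0.0732 to 0.124). On the other side the ribosomal protein gene rps3a was at 0.0132 ± 0.0701 and not called. Around mab21l1 several genes in a row had no named probe. The nearest measured ones were c4, a complement gene (0.0456 ± 0.33), and trmt9b, a methyltransferase gene (−0.26 ± 0.18), neither called. The highest there was n4bp2l2 (1.46 ± 0.58, adjusted p = 0.00351). Over 30 measured neighbours in all, 8 were called higher and 1 lower, against 22.9% and 13.8% of all genes, and their median was 0.00502.

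**Figure D4:**
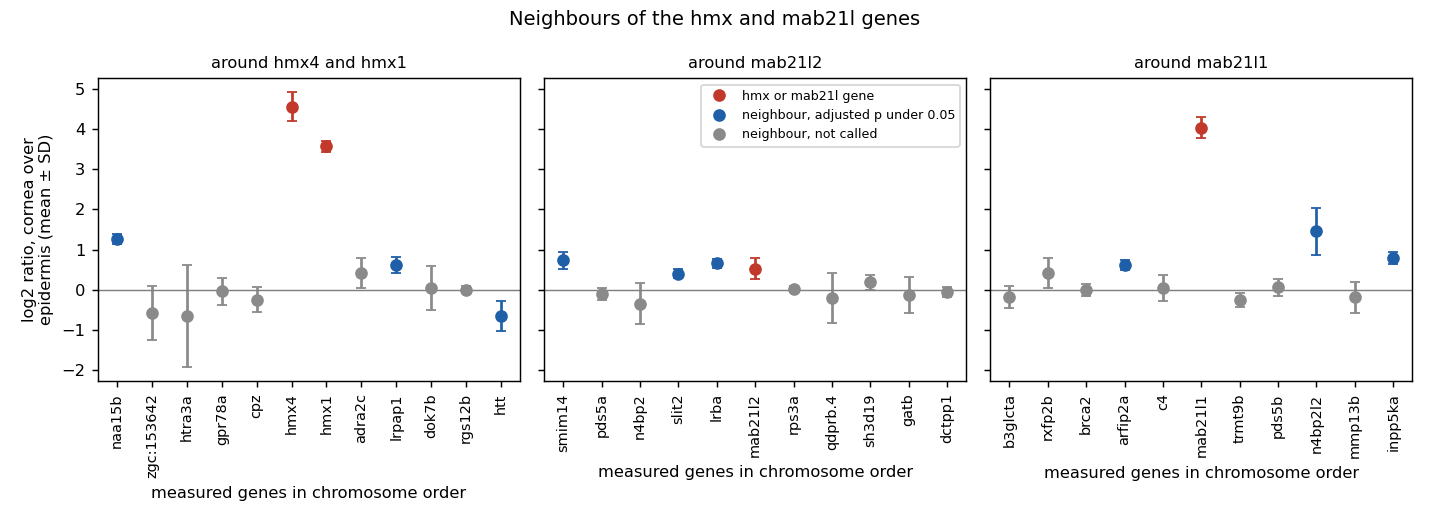
Mean log2 ratio of cornea over epidermis ± SD of 4 repeats (vertical axis) of up to 5 measured genes on either side of hmx4 and hmx1, of mab21l2 and of mab21l1, in chromosome order with unmeasured genes left out (horizontal axis, not to scale). hmx4, hmx1 and mab21l1 lie at 4.56, 3.57 and 4.04, the neighbours between −0.66 and 1.46, and mab21l2 at 0.53 lies among its neighbours.

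Likeness was measured as the root mean square difference of the log2 ratio over the 8 arrays, so that a small value means like ratios on every array. The 4 genes themselves and genes with clone-style names (with a colon) were passed over in this ranking. Most like mab21l1 were pax6b, the eye homeobox gene (0.24), gas1a, a hedgehog co-receptor gene (0.27), and pitx1, a homeobox gene (0.31), where the median gene was at 4.06. Most like hmx4 were the matrix glycoprotein genes thbs1b (0.27) and tnn (0.29) and the smooth muscle actin gene acta2 (0.35). Nearest to hmx1 were galnt7, which encodes an enzyme of mucin-type glycosylation (0.25), the clusterin gene clu (0.36) and gyg1b, a glycogenin gene (0.36). Some of these are means of unlike probes, at 3.19 and 5.81 for tnn, 2.95 and 4.07 for clu and 3.18 and 3.98 for gyg1b. mab21l1 (3.03 and 5.05) and hmx4 (4.10 and 5.01) are such means too. Their likeness to other genes, that of mab21l1 to pax6b among them, is thus one of the mean over probes and was not measured for either probe. Since few genes reach such ratios, the size of the ratio fixed most of this order. mab21l2 was most like dtx3 (0.20), fgfr2, a fibroblast growth factor receptor gene (0.21), and zbtb11 (0.22), where the median gene was at 0.89.

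In the embryonic eye the Hmx genes act within a set of genes that divide the optic cup into nasal and temporal, dorsal and ventral parts. Of 49 such genes measured, 10 were called higher in cornea and 11 lower (20.4% and 22.4%, against 22.9% and 13.8% of all genes), and the median was −0.0788. The lowest was foxd1, a forkhead gene that marks the temporal retina, at −3.64 ± 0.59 (limma adjusted p = 0.000147). foxd1, measured by 1 probe, was below 0 on all 8 arrays, on the other side of 0 from hmx1 and hmx4. This sets 1 gene against genes chosen with their ratios known, so nothing is read from it about the nasal-temporal axis. Of the 6 measured EphA receptors, which read the nasal-temporal axis, 3 were called higher and 0 lower, against 22.9% and 13.8% of all genes. epha3 was higher at 1.90 ± 0.27 (adjusted p = 0.000250) and epha4b at 1.64 ± 0.33 (adjusted p = 0.000550). epha7, the remaining one called, stood at 0.66 ± 0.27 (adjusted p = 0.0135), and the other 3 receptors had ratios down to −0.34. Of 5 ephrin-A genes, which encode the ligands, efna3a was called higher (0.83 ± 0.32, adjusted p = 0.00765) and the remaining 4 were not called. epha7, efna3a, tbx3a, vax1, vax2, aldh1a3, rdh10b and cyp1b1 were named after their values were seen, to account for the members of their families or groups.

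Called retinoic acid genes of the axis list went both ways, while aldh1a3 (0.26 ± 0.29), rdh10b (0.35 ± 0.16) and cyp1b1 (−0.20 ± 0.18) were not called. aldh1a2, which encodes the enzyme that makes retinoic acid in the dorsal eye, was higher at 1.27 ± 0.35 (limma adjusted p = 0.00162). Of the degrading enzymes, cyp26a1 was higher at 1.63 ± 0.95 (adjusted p = 0.0116, lost without repeat 4 at 0.0514) and cyp26c1 lower at −1.18 ± 0.36 (adjusted p = 0.00238), with its probes at −0.12 and −2.24. Of 5 T-box genes, the family that marks the dorsal eye, 1 was called higher and 1 lower, against 22.9% and 13.8% of all genes. These were tbx2b at 0.98 ± 0.23 (adjusted p = 0.00223) and tbx3a at −0.89 ± 0.25 (adjusted p = 0.00372), and 3 were not called. The Vax genes of the ventral eye, vax1 (0.18 ± 0.27) and vax2 (0.0671 ± 0.64), were both not called. The hedgehog ligand gene shha was lower at −1.42 ± 0.85 (adjusted p = 0.0134), a call lost without repeat 4 (0.0584), and its probes stood at −2.65 and −0.19. bambib, which encodes a BMP pseudoreceptor, was lower at −1.28 ± 0.32 (adjusted p = 0.00134). foxd2 was lower at −1.10 ± 0.44 (adjusted p = 0.00509), with probes at −2.40 and 0.20. The highest of these 49 genes was epha3, below hmx1, hmx4 and mab21l1. Only 0.574% of all genes had a log2 ratio over 3, and those 3 genes were chosen with theirs known, so nothing is read from this.

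Transcription factors of eye development, among them those of the eye field, optic vesicle and lens placode, reached higher. Of 64 measured, 13 were called higher and 4 lower (20.3% and 6.25%, against 22.9% and 13.8% of all genes), with a median of 0.0857. The ratio of pax6b (4.09 ± 0.25) lay among those of hmx1, mab21l1 and hmx4, and six3a (3.40 ± 0.35), foxc1a (3.34 ± 0.47) and pax6a (3.26 ± 0.45) were a little below hmx1. The probes of pax6a stood at 2.54, 5.63 and 1.61, further apart than those of mab21l1. six3b followed at 2.25 ± 0.35, with probes at 3.04 and 1.46. Most of the list was far from this, with 47 of the 64 genes not called. Lowest were eya4 (−1.10 ± 0.41), sox11a (−0.93 ± 0.27), meis1b (−0.52 ± 0.14) and pax2b (−0.42 ± 0.21), with limma adjusted p between 0.00335 and 0.0494. The call of meis1b was lost without repeat 2 (0.0514) or 4 (0.0608), and that of pax2b with any 1 repeat left out (0.0567 to 0.161) or with the replicate block (0.0516). Below six3b the remaining genes called higher ran from bcl6ab (1.77 ± 0.48) down to rx1 (0.58 ± 0.32). bcl6ab and rx1 were named after their values were seen, to give this range.

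The Hmx and Mab21l genes are also genes of the retina and lens, so markers of other ocular cells were set beside them. Of 32 photoreceptor genes 6 were higher and 0 lower, of 34 genes of retinal neurons and glia 7 were higher and 3 lower, and of 35 lens genes 2 were higher and 3 lower. These are 18.8%, 20.6% and 5.71% higher and 0%, 8.82% and 8.57% lower, against 22.9% and 13.8% of all genes. Their medians over genes were 0.16, 0.00379 and −0.13. By repeat the photoreceptor median ran from −0.0290 in repeat 1 to 0.59 in repeat 4, while hmx1, hmx4 and mab21l1 were 3.74, 4.63 and 4.01 in repeat 4. In that repeat hmx1 was at its highest and mab21l2 at its lowest. Highest in these lists were the cone transducin gene gnat2 (2.69 ± 0.27), the apolipoprotein gene apoeb (2.25 ± 0.16) and the lens crystallin gene crygs1 (1.24 ± 0.24). Lowest of the called genes were slc1a3a (−0.82 ± 0.27) among neurons and glia and bfsp2 (−1.01 ± 0.60) in the lens list. The call of bfsp2 was lost without repeat 4 (limma adjusted p = 0.0543). The value of gnat2 is a mean of unlike probes, at 1.23 and 4.14. Of 24 genes of pigment epithelium and iris pigment cells 10 were higher and 3 lower (41.7% and 12.5%, against 22.9% and 13.8% of all genes, median 0.33), led by the visual cycle gene rpe65a (3.32 ± 0.69). The lowest there was pts (−1.60 ± 0.45). Among the 31 measured genes of skeletal muscle, 7 were called higher and 4 lower (22.6% and 12.9%, near the 22.9% and 13.8% of all genes, median 0.23). The muscle list ran from smpx at −2.18 ± 0.55 to atp2a1 at 3.04 ± 0.64, with the median by repeat between −0.0932 and 0.42. The authors saw rpe65a RNA in the corneal epithelium, so rpe65a does not mark pigment epithelium alone. Their RT-qPCR found rpe65a, gnat2 and apoeb higher in cornea than in dermis. The authors also probed mab21l1 in situ as a cornea gene, and listed its expression as not affected in embryos mutant for pax6b. The part of other ocular cells or of muscle in the ratios of the 4 genes was not tested here.

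**Figure D5:**
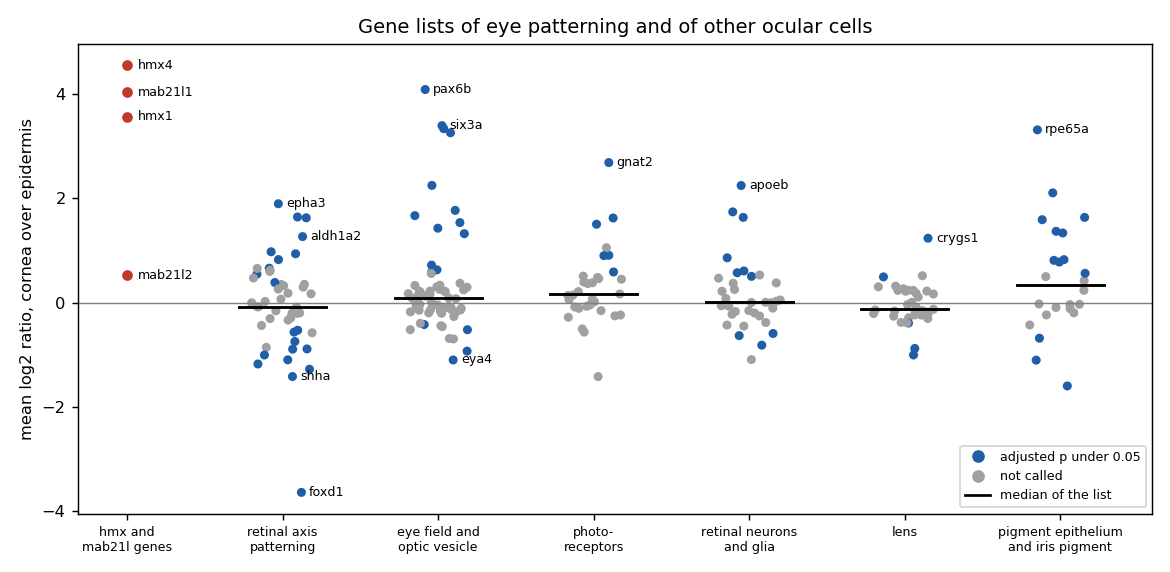
Mean log2 ratio of cornea over epidermis (vertical axis) of hmx1, hmx4, mab21l1 and mab21l2 in red and of each measured gene of 6 lists, blue where limma's adjusted p was under 0.05 and grey otherwise, with the list median as a black line. The medians lie between −0.13 and 0.33, and only pax6b at 4.09, six3a at 3.40, foxc1a, rpe65a and pax6a exceed 3.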

How the data were processed

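Cornea and epidermis were compared on 8 arrays of 45220 features. Per the labels and methods, the authors scanned the slides, corrected the background by the minimum method, normalised within and between arrays with limma and deposited log2 ratios, 1 column per array. The base of the logarithm was not given in the sources used here and was taken as 2. The deposited columns already ran in 1 tissue order. Signal over background was not used here, so that dim and bright spots have equal weight.

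Features were named through the array annotation after rearranging a grid of 532 rows by 85 columns. Probes of a gene and then both arrays of a repeat were averaged. All 14462 genes were tested against 0 with limma 3.58.1 (R 4.3.3, lmFit, eBayes, 4 repeats, two-sided). Benjamini-Hochberg adjustment ran over all of them, and genes were called at adjusted p under 0.05. The 4 genes described were part of this fit and of the counts over all genes, but their own tests are not given. The procedure was tested on simulated data. The members and gene lists were chosen with earlier results of these data known. Genes named beside the 4 were all measured relatives, 5 measured neighbours on either side, the 3 most alike, and the highest and lowest called genes of each list. Names, the order of neighbouring genes and the overlap of lrba with mab21l2 came from RefSeq (GRCz12tu), whose coordinates are not given since the build of the array design was not given in the sources used here.

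Arrays with the same repeat number were taken to hold the same RNA extracts, since the labels name them as a replicate and its dye-swap. Their deviations from the means correlated at 0.0213 to 0.0899, against −0.0924 to 0.0370 between repeats. These ranges overlap, so the correlations do not settle the pairing.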

Additional observations from a re-analysis of the deposited data

Results flagged for a closer look

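Among 108 groups of 4 repeats, 6 held a repeat that stood apart from the other 3 by Dixon's ratio test, and chance alone gives about 1 in 20. Among the eye genes this was mab21l2, at 0.138 in repeat 4 against 0.628 to 0.691 in the others. foxc1a stood at 4.04 in repeat 2 against 3.09 to 3.12, and pax2b at −0.109 in repeat 3 against −0.537 to −0.508. The muscle gene smpx stood at −1.37 in repeat 1 against −2.52 to −2.34. b3glcta, a neighbour of mab21l1, stood at 0.219 in repeat 2 against −0.322 to −0.309. The median of the retinal axis list was −0.247 in repeat 2 against 0.0136 to 0.0419.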

How the results depend on the processing

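hmx1, hmx4 and mab21l1 stayed above 3 and mab21l2 between 0.38 and 0.67 under every alternative run with the rearranged grid. With features matched by number as given, hmx1 stood at −0.0498, hmx4 at −0.0508, mab21l1 at −0.22 and mab21l2 at −0.36, so every value rests on the layout. With cornea in Cy3 only, hmx1 was at 3.85 and mab21l1 at 4.35, and with cornea in Cy5 only at 3.29 and 3.72. With the probe of smallest variance, hmx4 was at 4.10 and mab21l1 at 3.03. Leaving out 1 repeat gave 3.51 to 3.62 for hmx1, 4.43 to 4.72 for hmx4, 3.97 to 4.16 for mab21l1 and 0.47 to 0.66 for mab21l2. Their dye terms then ran from −0.38 to −0.20, −0.32 to −0.11, −0.35 to −0.27 and −0.19 to 0.0318, that of mab21l2 changing sign without repeat 2 (0.0281) or 4 (0.0318).

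Over all genes, 3315 were called higher and 1994 lower. TREAT at 2-fold called 543 and 166, slide 1 alone 1400 and 639, and slide 2 alone 2190 and 1224. The numbering as given called 1944 higher and left 2015 genes above 0 on all arrays. Leaving out 1 repeat gave 2466 to 2975 higher and 1329 to 1879 lower, the fewest lower without repeat 3, and 3372 to 3622 genes above 0 on all remaining arrays. Of the retinal axis genes, 1 higher and 1 lower passed TREAT, 5 and 4 slide 1, 6 and 6 slide 2, and 4 and 5 the numbering as given. Each dye orientation alone called 7 of them lower, and leaving out 1 repeat 8 to 9 higher and 9 to 12 lower. Of the eye field genes, 5 higher and 0 lower passed TREAT, 5 and 7 the numbering as given. The probe of smallest variance called 7 lower, slide 1 called 1, and leaving out 1 repeat gave 10 to 12 higher and 2 to 4 lower, the fewest, 2, without repeat 4.

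When the arrays of a repeat were paired (replicate block, with dye as a term), 3473 genes were called higher and 2135 lower, 10 and 8 of the axis list and 15 and 3 of the eye field list, and the levels of the 4 genes were as in the report (3.57, 4.56, 4.04 and 0.53). Of the named genes the block ended the calls of pax2b (adjusted p = 0.0516) and htt (0.138). Over 1027 values of 79 named genes, TREAT and the numbering as given left out, 956 kept their call, 64 lost and 6 gained a call. Only pds5a changed direction with a call, turning to 0.45 with the probe of smallest variance. Direction was not compared where neither run called the gene. mab21l3, for one, went from −0.15 to 0.13 with cornea in Cy3 only. The cause of these changes was not tested.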
